A study of Solanum lycopersicum with 18 samples.

Results

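Fruit of the tomato ripening-inhibitor mutant rin was compared between 45 and 40 days (DAP, which the labels spell out as days after planting), on 3 arrays at each age. These 6 arrays were taken by genotype and age from the labels, out of 18 in the study. The other 12 were rin fruit at 35 DAP and wild-type fruit at 35, 40 and 45 DAP, with 3 arrays each. All 18 were labelled as pericarp, the fleshy wall of the fruit, of the variety Pusa Ruby, and differed by label in genotype, age and stage alone. RNA was hybridised to the Affymetrix tomato array, and 1 signal per probe set and array was deposited. The labels give rin fruit of 40 DAP the stage breaker and rin fruit of 45 DAP the stage red-ripe, the stages that wild-type fruit of those ages carry too. They number the plants 1 to 3 at each age and call them biological replicates. A code in the titles is 6, 8 and 9 for the plants at 40 DAP and 3, 8 and 9 at 45 DAP, so plant 1 has another code at the later age.

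RIN is a MADS-box transcription factor that binds promoters of many ripening genes, and fruit of the rin mutant stays firm, makes little lycopene and shows no burst of ethylene. In wild-type tomato, breaker is the stage at which colour first appears, and ethylene made by ACC synthases and ACC oxidases drives softening, carotenoid synthesis and aroma from then on. The rin mutant is known to carry out some age-related change of the fruit wall without completing ripening.

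The 6 arrays were of like brightness, with medians from 84.0 to 87.8 in units of deposited signal. A signal at or below its own array's 30th percentile, which lay between 13.1 and 14.9, is called dim here. RIN was dim on all 9 rin arrays, at 5.11 to 9.27, while its lowest wild-type signal was 62.5. The seed marker MAN2, an endo-mannanase of the seed, was dim on all 6 arrays (4.64 to 5.04). AGL11, a MADS-box gene of seed and placenta, was dim on 5 of 6, with its highest signal, 21.1, on replicate 1 at 45 DAP. In the xylem and lignin list TPx1 lay between 4785 and 6002, while CCR1 ran from 43.3 to 295, highest on replicate 1 at 45 DAP, and TPX2 was dim on all 6 arrays. In the cuticle list ltpg1 lay between 9450 and 12923, while TSW12 ran from 55.8 to 5255, CHS1 from 4.82 to 553 and LE16 from 380 to 2222, and the part of these cell types in the results was not tested. In bulk tissue, fewer cells of a type and less RNA per cell cannot be told apart.

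The arrays of one age were not alike. Replicates 2 and 3 at 45 DAP correlated at r = 0.989 across the 7154 tested probe sets and had 39 of them (0.545%) at least 2-fold apart. Replicate 1 at 45 DAP stood at least 2-fold from those arrays in 1169 and 1062 probe sets. At 40 DAP the 3 pairs had 853 to 1640 such probe sets (11.9% to 22.9%). Replicate 1 at 40 DAP correlated better with replicate 1 at 45 DAP (r = 0.959) than with replicates 2 and 3 of its own age (r = 0.856 and 0.932). A measure of RNA integrity and labelling, the log2 ratio of 3' to 5' signal averaged over 6 control transcripts, was 0.527, 0.547 and 0.678 at 40 DAP. At 45 DAP it was 0.928 on replicate 1 against 0.379 and 0.363 on replicates 2 and 3. On the rin arrays of 35 DAP, which the fit below also uses, it was 0.515, 1.84 and 0.891. The part of this ratio in the results was not tested. The median SD of log2 signal within an age was 0.410 at 35 DAP, 0.331 at 40 DAP and 0.280 at 45 DAP.

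**Figure D1:**
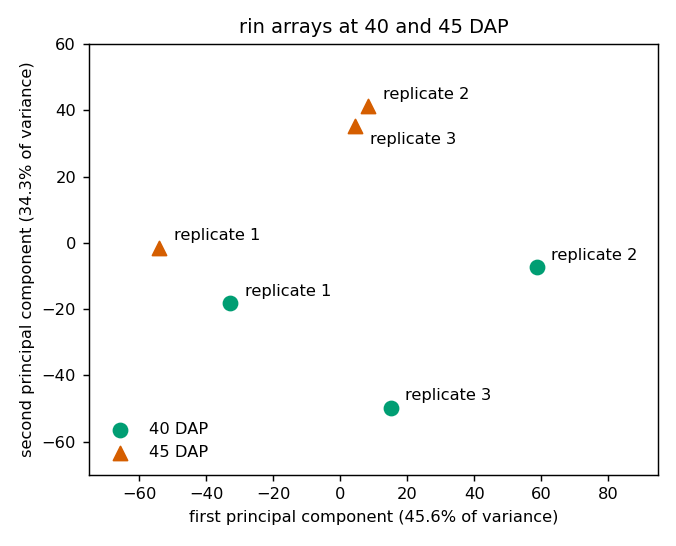
Principal components of the 6 rin arrays over 7154 probe sets in log2 signal, with the first component (45.6% of the variance) on the x axis, the second (34.3%) on the y axis, circles for 40 DAP and triangles for 45 DAP. Replicate 1 at 40 DAP lies at -32.8 on the first component, nearer to replicate 1 at 45 DAP (-53.9) than to replicates 2 and 3 of its own age (58.6 and 15.1). On the second it lies at -18.2, between replicates 2 and 3 of its own age (-7.39 and -49.7). The arrays at 45 DAP lie above all of these, at -1.45, 41.3 and 35.4.

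No transcript passed the test between 40 and 45 DAP in the main fit, which held all 9 rin arrays weighted alike. With limma, moderated variances and Benjamini-Hochberg adjustment, 0 of 7154 probe sets (0.0%) reached an adjusted p under 0.05, the threshold for a call, and the lowest value was 0.191. Without adjustment 687 (9.60%) had a p under 0.05, of which 294 (4.11%) were higher and 393 (5.49%) lower at 45 DAP, where 357.7 would be so by chance. In 1219 probe sets (17.0%) the 3 arrays at 45 DAP did not overlap the 3 at 40 DAP, with 539 (7.53%) higher and 680 (9.51%) lower. An exact permutation test of 3 arrays against 3 cannot give a two-sided p under 0.10 for any single gene. The genes below are therefore given as values. Those called with all 18 arrays or without replicate 1 at 40 DAP are said to be so. Calls under other settings, such as array weights, are not marked gene by gene. All 18 arrays in the fit, which adds the 9 wild-type arrays to the estimate of the spread, called 30 probe sets (0.419%), 13 higher (0.182%) and 17 lower (0.238%). Leaving out replicate 1 at 40 DAP called 90 (1.26%), 39 higher (0.545%) and 51 lower (0.713%).

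The highest differences among named genes were in small heat shock proteins, chaperones that hold unfolding proteins. ER-SHSP, which encodes a small heat shock protein of the endoplasmic reticulum, had signals of 276, 33.8 and 8.77 at 40 DAP (replicates 1, 2 and 3, the order used throughout) and 1427, 5292 and 7000 at 45 DAP. The lowest array at 45 DAP was above the highest at 40 DAP, the brighter mean was at least 72.5-fold the dimmer, and the log2 difference was 6.43 ± 1.23 (SE, adjusted p = 0.228). "At least" marks folds in which an array of the dimmer age was dim, with that signal raised to the array's 30th percentile. ER-SHSP was called higher without replicate 1 at 40 DAP (log2 difference 7.77 ± 0.98, adjusted p = 0.0190) and with all 18 arrays (adjusted p = 0.0280).

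HSP21, the small heat shock protein of plastids, had signals of 72.6, 74.3 and 14.1 at 40 DAP and of 1095, 5457 and 3432 at 45 DAP. The groups stood apart by at least 63.5-fold (log2 difference 6.01 ± 1.30, adjusted p = 0.228). The gene vis1, a small heat shock gene known from tomato for its effect on juice viscosity, was dim on 2 of 3 arrays at 40 DAP (9.62, 23.1 and 4.70) and reached 165, 1103 and 946 at 45 DAP. Both HSP21 and vis1 were called higher with all 18 arrays (adjusted p = 0.0354 for each) but not without replicate 1 (adjusted p = 0.0848 and 0.101). HSP17.4, a cytosolic small heat shock protein, overlapped between the ages, with 925, 375 and 1043 at 40 DAP against 275, 9001 and 6060 at 45 DAP. On all 4 of these genes replicate 1 at 45 DAP was the lowest array of its age, the array whose 3' to 5' ratio was the highest of the 6. Of the 3 tested members of the heat shock list (ER-SHSP is not in it), 2 were higher without overlap, beside 7.53% of all probe sets. Their median log2 difference over the 3 was 5.78, against -0.03 over all tested probe sets.

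**Figure D2:**
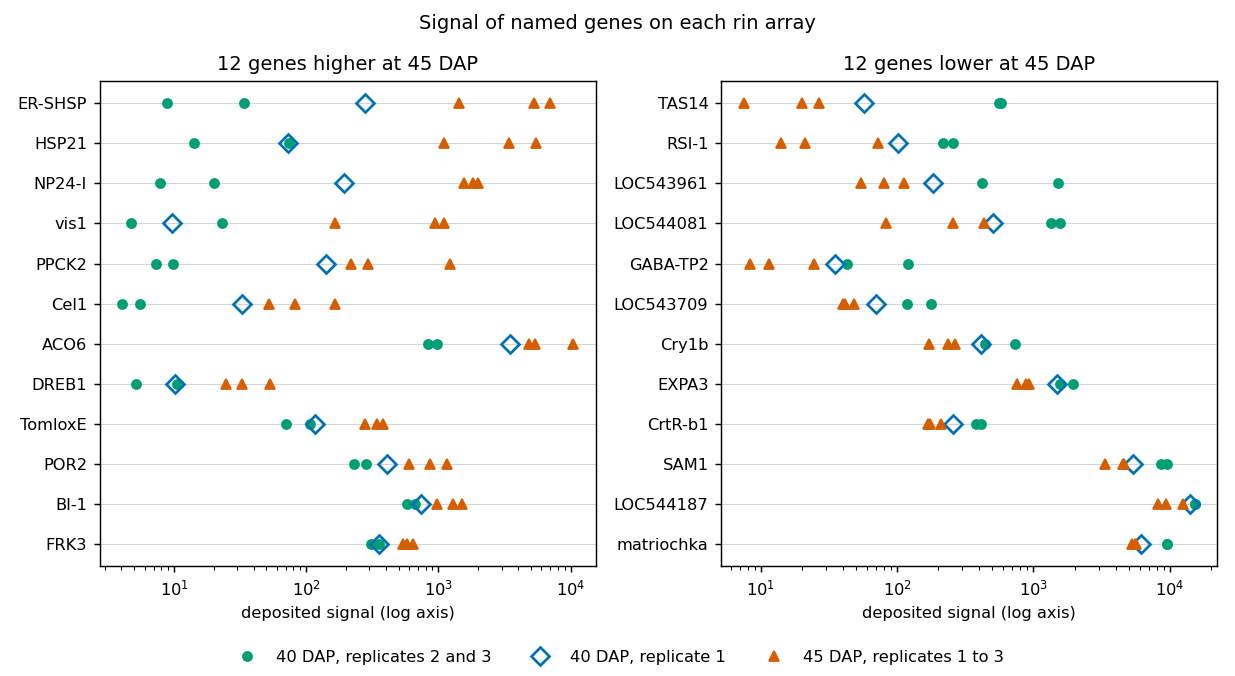
Deposited signal (log x axis) on each rin array for the 12 named genes higher and the 12 lower at 45 DAP, chosen by the smallest unadjusted p among genes whose ages do not overlap. Circles show replicates 2 and 3 at 40 DAP, open diamonds replicate 1 at 40 DAP and triangles the arrays at 45 DAP. Replicate 1 lies between the other arrays of its age and those of 45 DAP for ER-SHSP (276) and TAS14 (57.6), and among its own age for FRK3 (352).

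Of the 22 tested members of the cell wall list 19 overlapped between the ages, while single members differed widely by value. PG2, the polygalacturonase that depolymerises pectin in ripening fruit, had signals of 915, 375 and 7.43 at 40 DAP and of 5949, 3906 and 3695 at 45 DAP. The ages did not overlap and differed by at least 25.6-fold, with a log2 difference of 5.01 ± 1.46 (adjusted p = 0.314, and 0.0633 without replicate 1). Cel1, an endo-1,4-beta-glucanase known from abscission zones, gave 32.8, 5.50 and 4.06 at 40 DAP, where replicates 2 and 3 were dim, and 164, 81.9 and 52.4 at 45 DAP. Cel1 was called higher without replicate 1 (log2 difference 4.24 ± 0.65, adjusted p = 0.0268).

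Man4, an endo-mannanase of ripening fruit, varied widely at 40 DAP, with 2026, 43.4 and 4.46. At 45 DAP it gave 7957, 1642 and 1562, so replicate 1 at 40 DAP was above the 2 lower arrays of the later age. Its log2 difference was 5.22 ± 1.82 with all arrays (adjusted p = 0.381) and 7.62 ± 1.00 without replicate 1 (adjusted p = 0.0190). XET2, a xyloglucan endotransglycosylase outside the list, was 281, 25.4 and 51.3 at 40 DAP and 568, 356 and 325 at 45 DAP. It was also called higher without replicate 1 (adjusted p = 0.0268).

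Other wall genes were lower at 45 DAP. EXPA3, an expansin outside the list, varied little within each age, with 1481, 1555 and 1934 at 40 DAP and 874, 753 and 921 at 45 DAP (log2 difference -0.96 ± 0.20, adjusted p = 0.228). CEL8, an endoglucanase, was 20.2, 648 and 308 at 40 DAP and 7.72, 29.6 and 32.3 at 45 DAP. Its ages overlapped through replicate 1 at 40 DAP, and it was called lower without that array (adjusted p = 0.0313). Of the 22 tested members of the cell wall list, 2 were higher and 1 lower without overlap, against 7.53% and 9.51% of all probe sets, and their median log2 difference was 0.19. Without replicate 1 at 40 DAP, 2 members of that list were called higher and 1 lower.

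Ethylene synthesis had members on both sides. ACO6, an ACC oxidase, which makes ethylene from its precursor, was bright on every array, with 3453, 983 and 836 at 40 DAP and 10486, 5399 and 4804 at 45 DAP. It differed 4.58-fold without overlap (log2 difference 2.19 ± 0.58, adjusted p = 0.259) and was called higher without replicate 1 (adjusted p = 0.0315). Its other 2 probe sets were also higher at 45 DAP without overlap. ACS4, an ACC synthase, the enzyme before it, was 244, 29.3 and 24.9 at 40 DAP and 1008, 380 and 394 at 45 DAP (log2 difference 3.24 ± 1.16, adjusted p = 0.394). SAM1, an S-adenosylmethionine synthetase that supplies the pathway's substrate, ran the other way, with 5406, 9506 and 8600 at 40 DAP and 4532, 3322 and 4576 at 45 DAP. It was called lower without replicate 1 (log2 difference -1.14 ± 0.19, adjusted p = 0.0363). Of 7 tested members, 2 were higher and 1 lower without overlap, beside 7.53% and 9.51% of all probe sets, and the median log2 difference was 0.59.

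Among 29 tested genes of ethylene perception and response, 2 were higher without overlap and none lower, about the 7.53% of all probe sets that were higher. By limma 0 were called in the main fit of 9 arrays, with 18 arrays or without replicate 1. ER1, an ethylene-responsive gene, was dim on all arrays at 40 DAP (7.73, 5.15 and 3.97) and gave 216, 55.5 and 46.0 at 45 DAP. LOC544279, which RefSeq also lists as ETR3, an ethylene receptor, was 959, 217 and 340 at 40 DAP and 2115, 820 and 675 at 45 DAP. The receptor's ages overlapped through replicate 1 at 40 DAP (log2 difference 1.35 ± 0.57, adjusted p = 0.490).

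The regulators of ripening showed no common direction. NOR, a NAC factor needed for ripening, had signals of 1910, 79.8 and 103 at 40 DAP and of 2362, 895 and 903 at 45 DAP. Replicate 1 at 40 DAP was above replicates 2 and 3 at 45 DAP, and the log2 difference of 2.31 ± 1.23 had an adjusted p of 0.613, or 0.0815 without that array. TAGL1, a MADS-box gene of fruit expansion and ripening, gave 1104, 1441 and 1002 against 1146, 560 and 748 at 45 DAP. Of the 5 tested regulators only NAC1 was higher without overlap, beside 7.53% of all probe sets. Its signals were 13.2, 10.7 and 9.92 at 40 DAP, all dim, and 19.8, 29.1 and 23.3 at 45 DAP. NAC1 thus passed the filter through 45 DAP alone, which makes higher values there without overlap nearly certain.

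Carotenoid and isoprenoid genes lay on both sides, and the leading ones differed by less than 2-fold. CrtR-b1, a beta-carotene hydroxylase, was 257, 382 and 414 at 40 DAP and 210, 168 and 174 at 45 DAP (log2 difference -0.91 ± 0.25, adjusted p = 0.292). FPPS1, a farnesyl diphosphate synthase, was 1224, 835 and 812 at 40 DAP and 2089, 1722 and 1563 at 45 DAP (log2 difference 0.92 ± 0.26, adjusted p = 0.297). Psy1, the phytoene synthase of fruit, overlapped between the ages, with 4062, 2079 and 1391 against 5816, 2651 and 3302. Of 18 tested members, 2 were higher and 3 lower without overlap, where 17.0% of all probe sets did not overlap, and the median log2 difference was 0.28.

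Of 6 aroma genes 1 did not overlap between the ages, a share like the 17.0% of all probe sets. AAT, an alcohol acyltransferase that makes volatile esters, was 1768, 161 and 34.0 at 40 DAP and 3893, 1152 and 1351 at 45 DAP. The fruit lipoxygenase loxC was 331, 59.5 and 19.9 at 40 DAP and 811, 271 and 284 at 45 DAP. In both genes replicate 1 at 40 DAP was above replicates 2 and 3 at 45 DAP. Neither was called in the main fit of 9 arrays, with 18 arrays or without replicate 1. Another lipoxygenase gene, TomloxE, had 117, 106 and 69.8 at 40 DAP and 277, 345 and 381 at 45 DAP, and was called higher with all 18 arrays (log2 difference 1.80, adjusted p = 0.0490). LOX1.1, a lipoxygenase, was the aroma gene without overlap, lower at 45 DAP, from 8729, 8619 and 9532 to 5887, 5481 and 6063.

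Defence genes included NP24-I, an osmotin-like protein of the PR-5 family. It had signals of 192, 20.2 and 7.79 at 40 DAP and of 1573, 1989 and 1824 at 45 DAP, at least 46.2-fold apart (log2 difference 5.84 ± 1.24, adjusted p = 0.228). NP24-I was called higher without replicate 1 at 40 DAP, at least 103-fold (adjusted p = 0.0249). GluB, a basic beta-1,3-glucanase, was 8.86, 21.9 and 6.18 at 40 DAP and 53.6, 164 and 85.7 at 45 DAP, without overlap. Of 6 tested defence genes, 2 were higher and 1 lower without overlap, beside 7.53% and 9.51% of all probe sets. BI-1, an inhibitor of cell death in the endoplasmic reticulum membrane, was 742, 662 and 577 at 40 DAP and 979, 1287 and 1515 at 45 DAP.

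In the hormone and dehydration genes TAS14 stood lowest. TAS14, a dehydrin known to be induced by abscisic acid and salt, was 57.6, 575 and 561 at 40 DAP and 7.51, 19.9 and 26.7 at 45 DAP. The ages stood at least 13.9-fold apart (log2 difference -4.06 ± 0.91, adjusted p = 0.228), and without replicate 1 the gene was called lower, at least 29.7-fold (adjusted p = 0.0185). DREB1, a DREB-type transcription factor, ran the other way, with 10.2, 10.5 and 5.11 at 40 DAP, all dim, and 52.8, 32.7 and 24.8 at 45 DAP. Like ER1, DREB1 passed the filter through 45 DAP alone. The gibberellin 20-oxidase gene 20ox-3 was 59.5, 54.6 and 33.8 at 40 DAP and 317, 474 and 402 at 45 DAP (log2 difference 3.04 ± 0.90, adjusted p = 0.314). CYP85A1, which acts in brassinosteroid synthesis, was also higher without overlap (log2 difference 2.37 ± 1.06, adjusted p = 0.528). RSI-1, a gene first described in auxin-induced lateral roots, was 102, 258 and 218 at 40 DAP and 72.3, 14.0 and 21.0 at 45 DAP.

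Sugar and starch genes divided between enzymes. FRK3, a fructokinase, was among the tightest values, with 352, 355 and 310 at 40 DAP and 642, 580 and 541 at 45 DAP (1.73-fold, log2 difference 0.79 ± 0.21, adjusted p = 0.258). FRK2, another fructokinase, was lower without overlap, with 931, 1095 and 1510 against 751, 530 and 653. The cell wall invertase gene lin5 was 467, 259 and 239 at 40 DAP and 1194, 774 and 925 at 45 DAP. LOC543961, a sucrose synthase that RefSeq also lists as SUS1, was 184, 420 and 1502 at 40 DAP and 80.5, 53.9 and 111 at 45 DAP (log2 difference -2.64 ± 0.74, adjusted p = 0.297). Of 15 tested members, 3 were higher and 2 lower without overlap, beside 7.53% and 9.51% of all probe sets, and the median log2 difference was -0.06. PPCK2, a kinase of phosphoenolpyruvate carboxylase, outside that list, was 140, 9.78 and 7.28 at 40 DAP and 1232, 291 and 217 at 45 DAP. PPCK2 was called higher without replicate 1 (log2 difference 5.66 ± 0.69, adjusted p = 0.0190).

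The 5 tested genes of glutamate, GABA and nitrogen metabolism had a median log2 difference of -1.04 (-1.46 without replicate 1 at 40 DAP), against -0.03 over all probe sets. Of these 5, 1 was lower without overlap, beside 9.51% of all probe sets. GS2, the plastid glutamine synthetase, was 62.9, 120 and 121 at 40 DAP and 42.1, 51.1 and 39.3 at 45 DAP, lower without overlap. ARG2, an arginase, was 161, 1384 and 1086 at 40 DAP and 164, 152 and 247 at 45 DAP. On replicate 1 at 40 DAP it was thus already at the level of 45 DAP. ARG2 was called lower when that array was left out of the 9 (log2 difference -2.74 ± 0.38, adjusted p = 0.0240), but not with all 9 (adjusted p = 0.489) or all 18 (adjusted p = 0.411). CDKA1, a cyclin-dependent kinase of the cell cycle, was 96.6, 420 and 425 at 40 DAP and 61.2, 92.5 and 90.1 at 45 DAP. Replicate 1 was again the lowest array of 40 DAP, but CDKA1 on it stayed above every array of 45 DAP. CDKA1 too was called lower without replicate 1 (log2 difference -2.40 ± 0.32, adjusted p = 0.0190). Of 5 tested cell cycle genes CDKA1 was the one without overlap, where 17.0% of all probe sets did not overlap.

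Further named genes were lower at 45 DAP by value. Cry1b, a blue-light receptor, was 412, 442 and 733 at 40 DAP and 172, 234 and 264 at 45 DAP (log2 difference -1.22 ± 0.28, adjusted p = 0.228). GABA-TP2, which RefSeq also lists under a glycoalkaloid gene name (GAME12), was 35.3, 42.6 and 120 at 40 DAP and 8.30, 11.4 and 24.7 at 45 DAP. The gene named matriochka was very bright, with 6190, 9579 and 9544 at 40 DAP and 5663, 5557 and 5274 at 45 DAP, and was called lower without replicate 1 (log2 difference -0.80 ± 0.12, adjusted p = 0.0279). LOC544081, with no role given here, was 505, 1568 and 1352 at 40 DAP and 82.6, 432 and 257 at 45 DAP.

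The remaining lists were small, and their counts stand beside 7.53% of all probe sets higher and 9.51% lower without overlap. Of 5 photosynthesis genes, LOC543978 was higher without overlap (1214, 359 and 1273 against 2078, 1466 and 1494) and the other 4 overlapped. Of 4 jasmonate genes, loxD was higher and OPR1 lower without overlap. The 2 tested flavonoid genes, the 2 auxin genes and the 5 genes of polyamine, arginine and histidine metabolism overlapped in every case. In the 4 cuticle genes, TSW12, a lipid transfer protein, split the arrays in another way, with 928, 236 and 55.8 at 40 DAP and 113, 5255 and 4349 at 45 DAP. LE16, another lipid transfer protein gene, was higher at 45 DAP without overlap. No member of any of the 19 lists with a tested member was called in the main fit of 9 arrays.

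Replicate 1 at 40 DAP was then set on the axis between the ages. For every probe set in which the other 2 arrays of its age and the 3 of the other age differed by at least 1 in log2, its position was 0 at its own age's mean and 1 at the other age's. Choosing probe sets by that gap draws the array left out of it towards the other age, to 0.6 if the ages did not differ and all arrays varied alike and independently, so positions are compared between arrays and not with 0. Over 1019 such probe sets the median position was 0.745 (quartiles 0.404 and 1.12), and the array was nearer to 45 DAP in 711 of them (69.8%). The same measure for replicate 2 at 40 DAP had a median of 0.419 with 47.5% nearer the other age, and for replicate 3 a median of -0.236 with 11.2%. At 45 DAP, replicate 1 had a median of 0.516 and 51.1%, and replicates 2 and 3 had medians of 0.179 and 0.218. By this median, replicate 1 at 40 DAP was the nearest of the 6 arrays to the other age, and replicate 1 at 45 DAP came next.

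**Figure D3:**
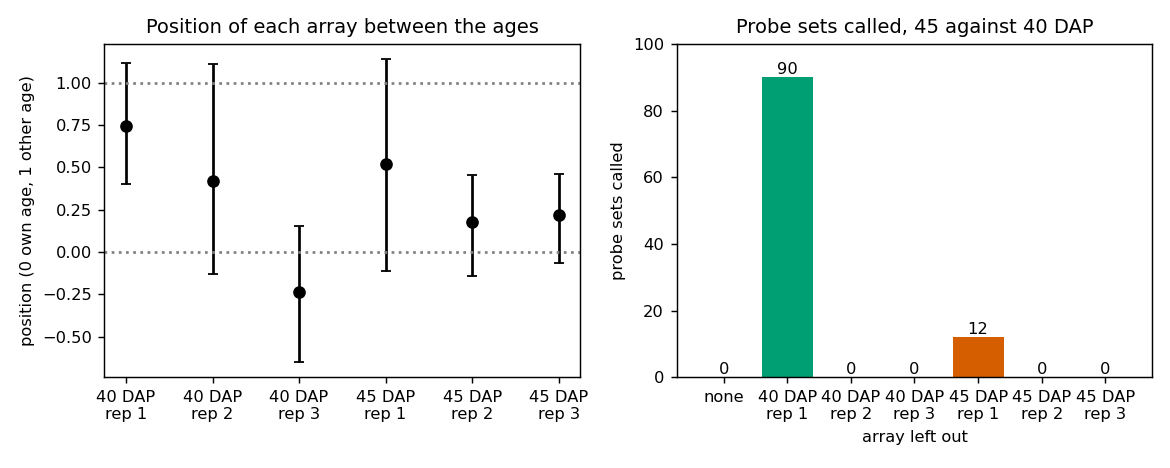
The left panel plots, for each rin array, the median (point) and quartiles (bars) of its position between the ages, where 0 is the mean of its own age and 1 that of the other. The right panel plots the number of probe sets called between 45 and 40 DAP with no array left out (0) and with each array left out, which gives 90 for replicate 1 at 40 DAP, 12 for replicate 1 at 45 DAP and 0 for each of the other 4.

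The 90 probe sets called without replicate 1 kept their direction with all arrays, and 82 of them had an unadjusted p under 0.05 there. In 61 the ages did not overlap over all 6 arrays. Replicate 1 was nearer to the mean of 45 DAP than to that of replicates 2 and 3 in 78 of the 90, and beyond it in 18. Its median position in them was 0.746 (quartiles 0.603 and 0.938). These values are a description, since the 90 were chosen for a large gap between replicates 2 and 3 and 45 DAP, and the filter on dim signals used replicate 1, through which alone 1 of the 90 passed. The fit with all 18 arrays, which keeps replicate 1, called 14 of the 90.

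Of the 90, 16 carry a gene name. They were ER-SHSP, NP24-I, PPCK2, Cel1, ACO6, XET2, Man4 and abz1, called higher, and TAS14, SAM1, matriochka, CDKA1, CEL8, ARG2, h52 and AO1, called lower. The homeobox gene h52 and AO1, an aldehyde oxidase, had adjusted p of 0.0259 and 0.0400 there. The gene abz1 was 176, 27.8 and 42.6 at 40 DAP and 126, 172 and 153 at 45 DAP, with replicate 1 above every array of the later age. The lowest adjusted p was that of an unnamed probe set, chosen here after its values were seen. Its signals were 31.0, 3.28 and 3.22 at 40 DAP and 150, 137 and 127 at 45 DAP (log2 difference 5.41 ± 0.29 and adjusted p = 0.000435 without replicate 1, 0.198 with all 9 arrays).

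Some genes of replicate 1 at 40 DAP were past the level of 45 DAP. On the position scale NOR stood at 1.17, AAT at 0.990, Man4 at 0.943 and loxC at 0.926, while PG2 was at 0.645 and ER-SHSP at 0.515. Among lower genes PMEU1, a pectin methylesterase found throughout the plant, stood at 1.19, from signals of 120, 2979 and 3170 at 40 DAP and 56.1, 354 and 424 at 45 DAP. ARG2 was at 1.07 and CDKA1 at 0.886. The large differences inside 40 DAP were not all of replicate 1, since yfe37, which RefSeq also lists as the glutamate decarboxylase gene GAD3, had 5.27, 2106 and 145 there. AgpL1, a large subunit of ADP-glucose pyrophosphorylase in starch synthesis, had 12.1, 550 and 140, dim on replicate 1 alone.

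**Figure D4:**
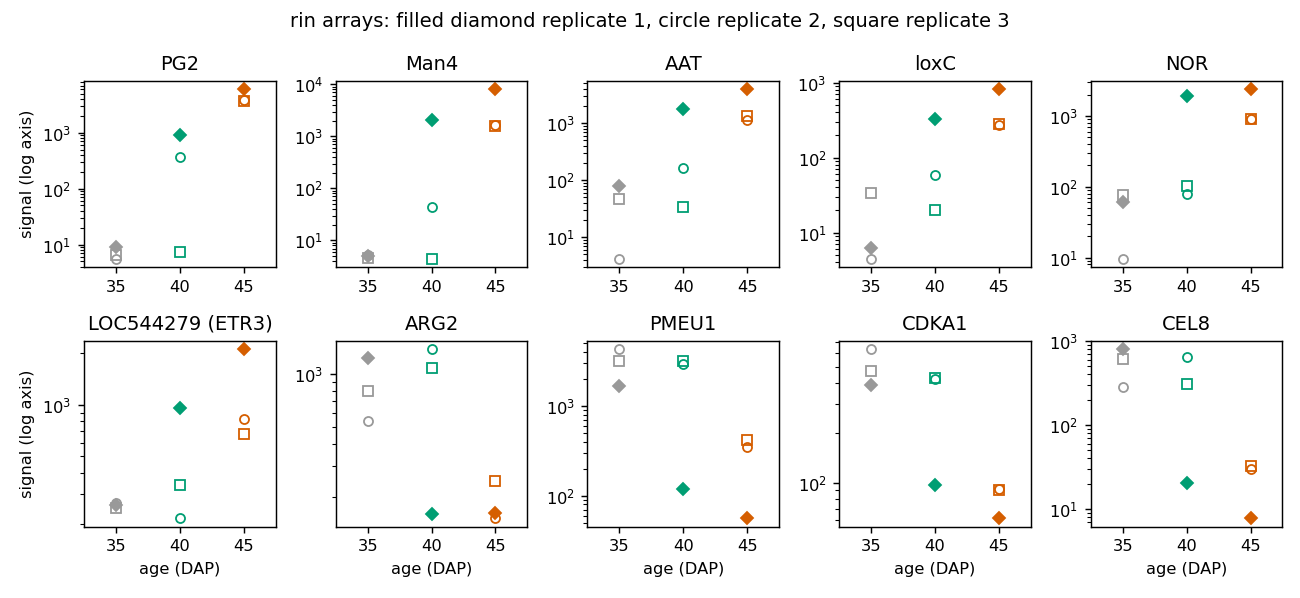
Deposited signal (log y axis) against age in DAP for 10 genes on the 9 rin arrays, with filled diamonds for replicate 1, open circles for replicate 2 and open squares for replicate 3. At 40 DAP the diamond stands with the arrays of 45 DAP for NOR (1910) and ARG2 (161), while at 35 DAP replicate 1 stands with the other arrays of its age for PG2, Man4 and NOR.

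The step from 40 to 45 DAP in rin was set beside that from 35 to 40 DAP in wild type, which by label leads from immature green to breaker fruit. The 2 steps share no array and differ in age. In wild type limma called 2357 of 7480 probe sets (31.5%). Across the 7154 probe sets tested in rin the log2 differences of the 2 steps correlated at r = 0.666, as a description over probe sets, which are not independent. The signs were the same in 5071 (70.9%). The median absolute log2 difference was 0.276 in rin and 0.569 in wild type. The correlation was 0.719 when replicate 1 at 40 DAP was left out and 0.494 when replicate 1 at 45 DAP was.

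Among the 90 probe sets called without replicate 1, 89 had the same sign in wild type, where 82 were called. Their median absolute log2 difference was 2.09 in rin with all arrays and 3.41 in wild type. Of the 1219 probe sets without overlap in rin, 1075 (88.2%) had the same sign in wild type. The difference between the steps was tested in 1 model of all 18 arrays, which called 168 of 7480 probe sets (2.25%), 85 with a higher log2 difference in rin (1.14%) and 83 with a lower one (1.11%).

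Ripening genes that changed strongly in wild type but little in rin led the named ones. ACS2, the ACC synthase of ripening fruit, rose at least 97.0-fold in wild type, while in rin it was dim on 5 of the 6 arrays and gave 110 on replicate 1 at 45 DAP (difference of the steps -6.72 ± 1.25 in log2, adjusted p = 0.0111). Cel2, an endoglucanase of ripening fruit, rose at least 52.3-fold in wild type and was dim on 5 of 6 rin arrays (difference -8.59 ± 1.00, adjusted p = 0.000310). TBG4, a beta-galactosidase of softening, differed by 5.99 in wild type and 0.66 in rin in log2 (adjusted p of the difference 0.000901). The same order held for Psy1, with 3.44 in wild type and 0.71 in rin (adjusted p = 0.0162). GP1, by contrast, had a log2 difference of -3.58 in wild type and of -0.50 in rin (difference 3.08 ± 0.61, adjusted p = 0.0158). PG2, Man4 and the heat shock genes vis1, HSP21 and ER-SHSP were not among the 168 called, which does not show that their steps were alike. Man4 had log2 differences of 10.98 in wild type and 5.22 in rin. Those of HSP21 were 6.62 and 6.01, and those of ER-SHSP 4.47 and 6.43, in the same order.

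**Figure D5:**
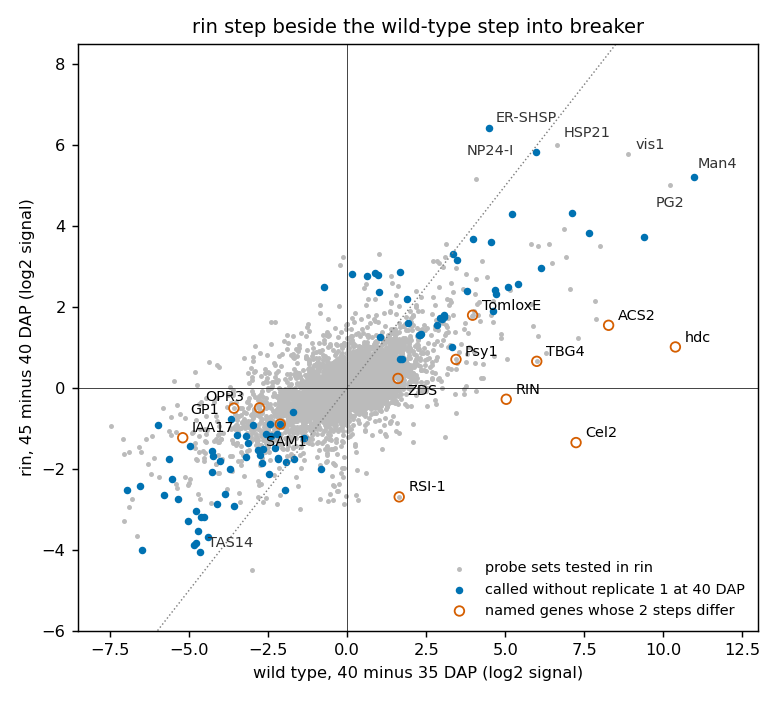
Log2 difference from 40 to 45 DAP in rin (y axis) against that from 35 to 40 DAP in wild type (x axis) for the 7154 probe sets tested in rin (grey). The 90 called without replicate 1 at 40 DAP are in blue, 13 of the named genes whose steps differ are circled, and equality is a dotted line. Most blue points lie in the quadrants of equal sign. Far to the right stand Cel2, TBG4 and RIN, at -1.35, 0.66 and -0.28 in rin. ACS2 is there too, at 1.55 in rin, through a signal of 110 on replicate 1 at 45 DAP. RIN, ACS2, Cel2, hdc and IAA17 were too dim to be tested in rin and are drawn from the model of both genotypes.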

How the data were processed

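Values are the deposited intensity values, 1 linear signal per probe set and array. The submitters' processing notes name GCOS, and the sources used here do not give how the authors subtracted background, summarised probes and scaled arrays. The labels' growth and treatment notes speak of seedlings and shoots, so groups came from titles and characteristics. The log2 of the deposited signal was used as it stood. Leaving 108 controls of the 10209 probe sets aside, 7154 of 10101 were brighter than the 30th percentile of the array concerned on 3 or more of the 6 arrays. The 9 rin arrays, with a mean for each age, were fitted with limma 3.58.1 (lmFit and eBayes with a trend) in R 4.3.3, and p-values were two-sided with Benjamini-Hochberg adjustment over all tested probe sets. The step difference used all 18 arrays and a filter of 3 of 12 arrays (7480 probe sets). Scripts were tested on simulated data.

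Gene names came from the platform annotation (2007 symbols) updated through RefSeq (SLM_r2.1): 909 probe sets carry 1 symbol, 0 several and 9192 are unnamed here, 885 matched, and 629 for 586 genes were tested. The brightest probe set represented a gene. Of 35 genes with several, 0 had probe sets on opposite sides without overlap.

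Named genes are the 12 higher and 12 lower without overlap by smallest unadjusted p, since the main fit called none. Named too are up to 2 per list by p, RIN, and the genes in which replicate 1 at 40 DAP stood farthest from its group. Other list members are examples chosen after their values were seen. The 21 lists, 19 with tested members, and the comparison itself were chosen with earlier results of these data known. Alternatives covered the arrays in the fit, normalization, pseudocount, filter, spread, array weights, each array left out, pairing and threshold. The number of arrays limits precision.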

Additional observations from a re-analysis of the deposited data

Results flagged for a closer look

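Each named gene below was flagged because its log2 difference from 40 to 45 DAP in rin differed from that from 35 to 40 DAP in wild type in a test of the difference itself (limma, 18 arrays, adjusted p under 0.05). The 168 probe sets called included 24 with a gene name. The 13 genes given below are those among them that are in a gene list or had already been chosen for naming. The steps cover different ages, so genotype and age cannot be told apart in them.

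The difference was negative, with rin below wild type, for 9 of these 13 genes. It was -5.31 ± 0.52 (SE) for RIN (adjusted p = 5.7e-05), which was dim on every rin array. It was -8.59 for Cel2 and -9.36 for hdc, a histidine decarboxylase whose signal in wild type rose at least 495-fold. In rin hdc was above the dim limit on replicate 2 at 40 DAP (33.5) and replicate 1 at 45 DAP (213). For the beta-galactosidase TBG4 the difference was -5.34 and for the ACC synthase ACS2 it was -6.72. It was -2.74 for Psy1 and -1.37 for ZDS, the zeta-carotene desaturase of lycopene synthesis. RSI-1 (-4.34) was lower at 45 DAP in rin, by value, and higher at 40 DAP in wild type, and TomloxE (-2.17) was higher at the later age in both genotypes, with log2 differences of 1.80 and 3.97.

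The difference was positive for 4 of these 13 genes, each with a smaller decrease by value in rin than in wild type. It was 3.97 for IAA17, an auxin-response repressor, 3.08 for GP1, 2.28 for OPR3, which acts in jasmonate synthesis, and 1.22 for SAM1. In rin IAA17 was dim on every array of 40 and 45 DAP but replicate 2 at 40 DAP (40.4). Its wild-type signals at 35 DAP were 354, 316 and 171. How far IAA17 fell in rin could therefore not be measured.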

How the results depend on the processing

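The count of 0 called probe sets (limma, adjusted p under 0.05) was also 0 with only the 6 arrays, quantile normalization, median centring, log2(signal + 16), log2(signal + 32), the 50th percentile filter, no variance trend, a 2-fold or a stricter p threshold, and rin replicates 2 and 3 of 45 DAP averaged, and 443 to 783 probe sets had an unadjusted p under 0.05 in these fits. It was 3, all 3 higher, without a filter, 30 (13 higher, 17 lower) with all 18 arrays and 1833 (831 higher, 1002 lower) with array weights, where replicate 3 at 45 DAP had a weight of 6.52 and replicates 1 and 2 at 40 DAP and 1 at 45 DAP weights of 0.606, 0.386 and 0.393. Leaving out each array gave 0 to 90 (0 to 39 higher, 0 to 51 lower), with 90 when replicate 1 at 40 DAP was left out and 12, all lower, for replicate 1 at 45 DAP. Of 2 fits chosen after seeing the data, without both first replicates 104 were called (35 higher, 69 lower), and with all 18 arrays but replicate 1 at 40 DAP 251 (136 higher, 115 lower). With a replicate block 0 were called (743 at an unadjusted p under 0.05), and 0 with the title code as a random replicate block (consensus correlation -0.01). Same-numbered arrays deviated together for replicates 1 and 2 (correlations 0.513 and 0.508) but not for replicate 3 (-0.03). Replicate 3 at 40 DAP correlated best, at 0.07, with replicate 1 at 45 DAP. Deviations from a mean of 3 arrays depend on each other, and replicates 2 and 3 at 45 DAP were nearly alike (r = 0.989). These correlations therefore cannot show whether the numbers pair the samples.

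Of 63 genes followed, 60 kept their direction under every setting and 52 were called with array weights. The log2 difference of CHS2 turned to 0.92 with array weights and 0.35 without both first replicates, and ranged from -1.40 to 0.86 with an array left out, turning for replicate 2 at 40 DAP (0.0070) and replicate 1 at 45 DAP. LOC778302 ranged likewise from -2.74 to 0.62, turning for replicate 2 at 40 DAP, and CCR1 from -0.17 to 0.91, turning for replicate 1 at 45 DAP. The 168 step differences became 2121 (1004 higher, 1117 lower) with array weights, 156 with a replicate block and, without a filter, had 52 higher. They ranged from 66 to 308 (30 to 164 higher, 36 to 150 lower) with an array left out, lowest without rin replicate 3 at 45 DAP and highest without rin replicate 2 at 40 DAP. The correlation of the steps ranged from 0.494 to 0.719. Of the 13 flagged genes, 6 were called under all 17 settings, namely RIN, Cel2, TBG4, hdc, IAA17 and ACS2. GP1 was called under 16, Psy1 under 15 and ZDS under 11. RSI-1 and OPR3 were called under 6 each, SAM1 under 5 and TomloxE under 4. The cause of these changes was not tested. Dim signals give bounds only.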
